A study of Mus musculus with 7 samples.

Results

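The colony-stimulating factors and their receptors were followed through the cells of young and aged mouse mammary glands. The set holds 8 genes, chosen by symbol from the 27998 genes of the count matrix: the ligands Csf1, Csf2, Csf3 and Il34, and the receptors Csf1r, Csf2ra, Csf2rb and Csf3r. All 8 had at least 1 molecule counted. The study compared virgin female mice of a mixed FVB, 129 and C57BL/6J background, all in diestrus, at 3 to 4 months of age (Young A to C, n = 3) and at 13 to 14 months (Aged A to D, n = 4). The abdominal #4 glands were freed of lymph nodes, digested with collagenase and hyaluronidase and run on the 10x Chromium platform with 3′ chemistry, 1 library per mouse, without sorting. Each of the 13684 cells carried one of 13 cell type names given by the authors.

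These factors take their name from the blood cell colonies that they support in culture. CSF1 and IL34 both act through the tyrosine kinase CSF1R, on which most tissue macrophages depend for survival, and CSF1-dependent macrophages are known to take part in the branching of the mammary ducts. CSF2 acts on macrophages and dendritic cells through a receptor built of the specific chain CSF2RA and the common beta chain CSF2RB, which also serves the interleukin 3 and interleukin 5 receptors, and CSF3 drives neutrophil production through CSF3R.

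In the GRCm38 build, Csf1 lies on the minus strand at chr3:107741048-107760469 and Il34 on the minus strand at chr8:110741829-110805924. Csf2 and Csf3 are both on chromosome 11, at chr11:54247271-54249667 on the minus strand and chr11:98701263-98703629 on the plus strand. The genes of 3 receptors are at chr19:61223957-61228429 (Csf2ra), chr15:78325752-78353847 (Csf2rb) and chr4:126024550-126044440 (Csf3r). Csf2rb has a near-identical neighbour, Csf2rb2, which begins at position 78282507 and ends 20030 bases before it, so reads of the pair may have been divided unevenly between them. The 250 bases before the start of Csf1, a ligand with calls in both an epithelial and a vascular cell type, are shown beside those of Csf2ra, the receptor chain with counts in the epithelium. Both are RefSeq sequence of GRCm38.p6 read 5′ to 3′ on the minus strand, at chr3:107760470-107760719 and chr19:61228419-61228668. The RefSeq start of Csf2ra differs from that of the gene position above, so the last bases of its window lie inside that position. Capitals mark the match to the NF-kB motif, which in Csf1 reads on the opposite strand and lies 154 to 145 bases before the start.
Csf1: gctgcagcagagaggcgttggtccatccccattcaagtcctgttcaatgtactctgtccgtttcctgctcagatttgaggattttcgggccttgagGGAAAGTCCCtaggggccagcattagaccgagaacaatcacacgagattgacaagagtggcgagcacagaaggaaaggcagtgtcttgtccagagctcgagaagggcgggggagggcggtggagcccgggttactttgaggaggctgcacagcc
Csf2ra: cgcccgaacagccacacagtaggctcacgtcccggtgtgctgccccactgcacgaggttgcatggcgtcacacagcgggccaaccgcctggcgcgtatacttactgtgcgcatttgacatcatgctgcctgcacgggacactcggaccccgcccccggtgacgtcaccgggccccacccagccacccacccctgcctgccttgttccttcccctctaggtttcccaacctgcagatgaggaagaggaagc
The window of Csf2ra held no match, on either strand, to NF-kB or to the 3 other motifs searched, AP-1 (TGANTCA), C/EBP (TTGCNNAA) and PU.1 (GAGGAAGT), and Csf1 held none of those 3. Over 32851 mouse promoter windows of the same length, the shares with a match were 1.41% for NF-kB, 6.75% for AP-1, 9.56% for C/EBP and 2.44% for PU.1, and a match of letters is a description of the window only.

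The libraries held 6652599 to 16999625 unique molecular identifiers (UMIs, each standing for 1 captured transcript) from 1264 to 2865 cells. Median UMIs per cell were 4990 ± 249 (SD, n = 3) in young and 6183 ± 655 (n = 4) in aged mice (p = 0.0571 by an exact permutation of mice, two-sided), and the median mitochondrial percentage was 3.49 ± 0.274 and 2.58 ± 0.161 (exact p = 0.0286). Cell barcodes were written as 2 blocks of 8 bases in all 6372 young cells and as 1 block of 16 in all 7312 aged cells, so the libraries of both ages were handled in different ways at some step, and age and that handling cannot be told apart. At least 44 barcodes occurred in libraries of different mice, and this count may miss barcodes shared between a young and an aged library, which are written differently. Every marker of a single annotated type was highest in that type, except Prlr, Pgr and Esr1 of hormone-sensing luminal cells, which were highest in the luminal HS-AV cells. Myeloid cells (dendritic cells and macrophages Ma and Mb) made up 6.78% ± 2.21 of cells in young and 0.620% ± 0.561 in aged mice (exact permutation p = 0.0286), with 205, 60 and 185 cells in the young and 24, 11, 5 and 4 in the aged libraries, so the receivers of these factors rested on few aged cells.

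Across cell types, levels were given as CPM, the UMIs of a gene divided by all UMIs of that mouse and type and multiplied by 1000000, where the mouse had at least 3 such cells. Because this assay reads the 3′ end of transcripts, CPM needs no division by gene length, and levels of different genes are set side by side on that scale. On the mean over mice of both ages, Csf1 and Il34 were highest in fibroblasts, Csf3 in vascular endothelial cells, Csf1r in macrophage Ma, Csf2ra in macrophage Mb and Csf2rb in vascular endothelial cells. Csf3 was by far the most abundant member, with 49374 UMIs in the whole matrix, followed by Csf1 with 6116, Csf2rb with 2986, Csf2ra with 1747, Csf1r with 747 and Il34 with 578. Csf3r had 27 UMIs and Csf2 had 10. The differences between cell types are descriptions with no test, since the types were defined by clustering the same counts.

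**Figure D1:**
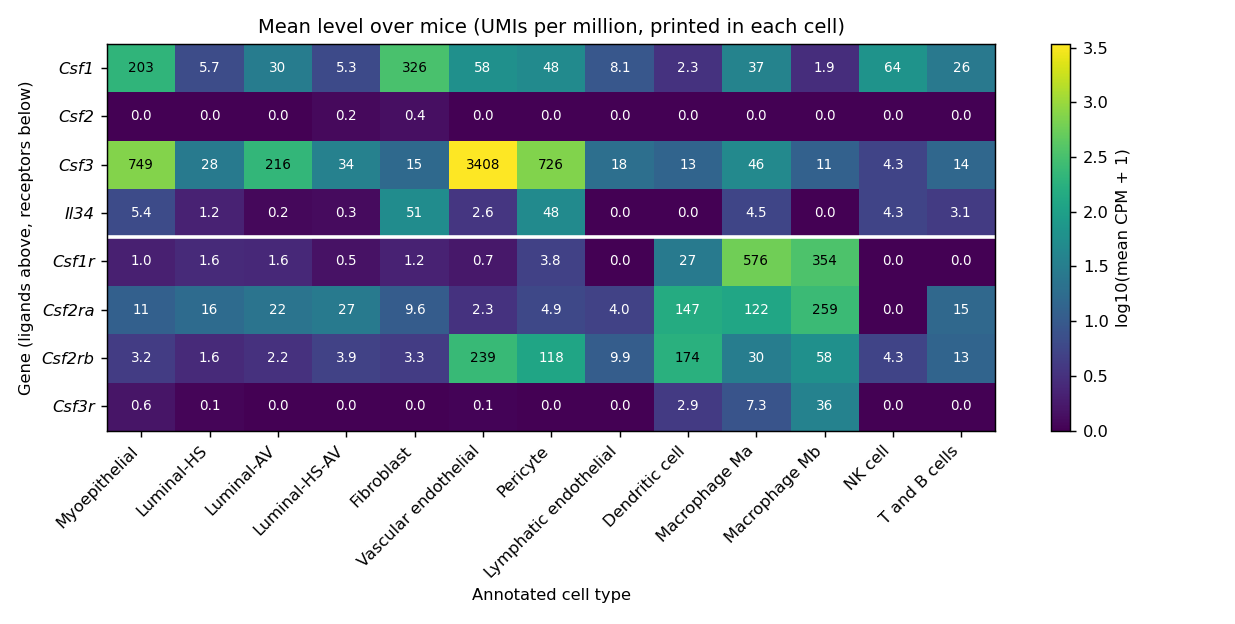
Heat map of the mean level over mice of both ages, with a row for each of the 8 genes (ligands above the white line, receptors below) and a column for each cell type. The mean CPM is printed in each field and the colour is log10(mean CPM + 1), which is brightest for Csf3 in vascular endothelial cells at 3408, while Csf1r is above 100 CPM in macrophages alone.

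Csf1, the main growth factor of macrophages, was found in stroma and in the basal layer of the epithelium. Its mean over mice was 326 ± 202 CPM (SD, n = 7) in fibroblasts, 203 ± 153 in myoepithelial cells, 58.4 ± 29.3 in vascular endothelial cells, 47.6 ± 19.0 in pericytes and 29.6 ± 23.1 in luminal AV cells, the secretory lineage of the ducts. It was 5.72 ± 4.52 in the hormone-sensing luminal HS cells. NK cells, with 9 Csf1 UMIs in all, averaged 63.6 ± 123 (n = 5). The fibroblast level exceeded the myoepithelial level in 6 of 7 mice, by 2.09, 7.11 and 6.22 times in the young and by 1.77, 1.23 and 1.77 times in Aged A, B and C, while in Aged D it was 0.536 of it. Vascular cells exceeded pericytes in 4 of 7 mice, and this pair did not differ beyond its spread. When cells were pooled over mice, myoepithelial cells rather than fibroblasts were highest for Csf1, at 261 against 218 CPM.

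Csf1 rose with age in myoepithelial and vascular endothelial cells. In myoepithelial cells its level was 55.7, 29.5 and 35.7 CPM in Young A, B and C and 319.7, 295, 358 and 324 in Aged A, B, C and D. Every aged mouse was far above the highest young mouse, and the aged mice were close together. The log2 fold change, aged against young, was 2.94 (SE 0.25, adjusted p = 1.17e-06, edgeR quasi-likelihood test over all genes of the cell type). Csf1 in vascular endothelial cells was at 23.8, 22.3 and 37.1 CPM in the young and at 82.6, 77.5, 89.1 and 76.2 in the aged mice, again with no overlap (log2 fold change 1.97, SE 0.21, edgeR adjusted p = 1.84e-05). The sum of Ptprc, Cd74, Lyz2 and Tyrobp in vascular endothelial cells was also higher in aged mice, at 619 to 8702 against 204 to 607 CPM. It was nearly all Cd74, a gene of antigen presentation at 2030 CPM over all mice, against 10.6 or less for each of the other 3, and Tyrobp was lower in aged mice. The part of immune cell RNA in the vascular Csf1 and Csf3 values was not tested.

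Fibroblasts, with the highest mean level per mouse, gave a less even picture. Their Csf1 level was 116, 209.7 and 222 CPM in the young and 567, 362, 633 and 174 in the aged mice, and Aged D, with 17 fibroblasts, fell inside the young range. Aged C, the highest mouse, had 15 fibroblasts. The log2 fold change was 1.34 (SE 0.37) and missed the threshold (edgeR adjusted p = 0.0677), while without Aged D it was 1.58 with an adjusted p of 0.0273 in edgeR. Over 16 alternatives (other processing or a mouse left out) it ran from 1.06 to 1.63 and was called in 2. The adjusted p there, from edgeR or DESeq2, reached 0.191. In luminal AV cells Csf1 overlapped between ages, at 6.92, 1.80 and 49.6 CPM in young and 58.4, 29.9, 48.5 and 11.9 in aged mice (0.94, SE 0.71, edgeR adjusted p = 0.478). Without Young C the fold change there was 3.06 (edgeR adjusted p = 0.0872), and without Young A, Young B or Aged A it was 0.46, 0.61 and 0.61. Luminal HS cells stayed between 2.37 and 15.4 CPM in all 7 mice (0.79, SE 0.49, edgeR adjusted p = 0.365).

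Il34, the second ligand of CSF1R, was found mainly in 2 stromal types, with 51.2 ± 24.6 CPM (n = 7) in fibroblasts and 47.6 ± 17.4 in pericytes. Fibroblasts were above pericytes in 3 of 7 mice, and pericytes were above the next type, myoepithelial cells at 5.40 ± 3.79, in all 7. Pooled over mice, pericytes were slightly higher than fibroblasts, at 46.3 against 43.2 CPM. Fibroblasts held 70.4% of the 578 Il34 UMIs. In these cells Il34 was at 47.9, 20.7 and 43.1 CPM in the young and 34.5, 97.8, 50.6 and 64.0 in the aged mice, which overlapped. The log2 fold change was 0.64 (SE 0.38, edgeR adjusted p = 0.385). Among young fibroblasts, a Csf1 UMI was found in 39.5% of the cells with an Il34 UMI and in 48.2% of the others.

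Csf3, which codes for the granulocyte factor G-CSF, was highest in the vascular endothelium, at 3408 ± 2760 CPM (n = 7, both ages), and there it exceeded myoepithelial cells, at 749 ± 690, in 7 of 7 mice. Pericytes were at 726 ± 587 and luminal AV cells at 216 ± 199. The order was not the same at both ages: in young mice pericytes (534 ± 156, n = 3) and vascular endothelial cells (508 ± 56.8) overlapped, pericytes were higher in Young A and B, and myoepithelial cells were at 15.7 ± 9.46. Among pericytes of all mice, a Csf3 UMI was found in 39.6% of those with a UMI of the endothelial marker Pecam1 and in 10.1% of the others. With every cell thinned to 2000 UMIs these shares were 31.3% and 21.4%. The part of endothelial RNA in pericyte Csf3 was not tested. In vascular endothelial cells Csf3 stood at 450.4, 564 and 509.9 CPM in Young A, B and C and at 5624, 4591, 5816 and 6299 in Aged A, B, C and D. The aged values lay about an order of magnitude above the young ones, with no overlap. The log2 fold change was 3.81 (SE 0.19, edgeR adjusted p = 8.58e-08).

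Myoepithelial cells, which had almost no Csf3 in young mice, carried it in every aged mouse. Their young levels were 22.7, 4.92 and 19.5 CPM, from 24, 1 and 6 UMIs, and their aged levels were 1453, 1289.95, 1268 and 1184 CPM. The log2 fold change of 6.19 (SE 0.30, edgeR adjusted p = 8.53e-10) was the largest of any member, and the counts behind its young side were small. In luminal HS cells Csf3 was 17.5, 7.43 and 19.0 CPM in young and 69.9, 28.2, 28.5 and 24.8 in aged mice, with Aged A apart from the others. The log2 fold change there was 1.41 (SE 0.36, edgeR adjusted p = 0.0428). Without Aged A it was 1.00 with an edgeR adjusted p of 0.0829, and leaving out Young A, B or C or Aged C or D also ended the call (edgeR adjusted p of 0.0978, 0.112, 0.0811, 0.0551 and 0.0581). For comparison, T and B cells averaged 10.5 CPM in young and 17.0 in aged mice, from 1 and 3 UMIs, and dendritic cells 2.11 and 28.5, from 3 UMIs at each age. Macrophage Mb averaged 9.12 and 13.1, and young macrophage Ma 45.6. These levels overlap those of luminal HS cells, and the part of free RNA in the luminal HS counts was not tested.

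Luminal AV cells and pericytes varied widely between mice of 1 age. Csf3 in luminal AV cells was 15.0, 73.7 and 441 CPM in the young and 477, 346, 109 and 46.2 in the aged mice, so the young range covered most of the aged one. Pericytes were at 576, 666 and 361 in the young and 1735, 207, 1323 and 214 in the aged mice. Neither passed the test (log2 fold changes 0.65, SE 0.94, and 0.84, SE 0.57, edgeR adjusted p = 0.741 and 0.368). Single mice decided these values: in luminal AV cells the fold change was 2.86 without Young C and 0.10, 0.32, 0.08 and 0.98 without Young A, Young B, Aged A or Aged D, and in pericytes it was 0.30 without Aged A and 0.53 without Aged C. In fibroblasts Csf3 had 110 UMIs in the young and 37 in the aged mice, where Aged B and C had none, and it did not enter the test.

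**Figure D2:**
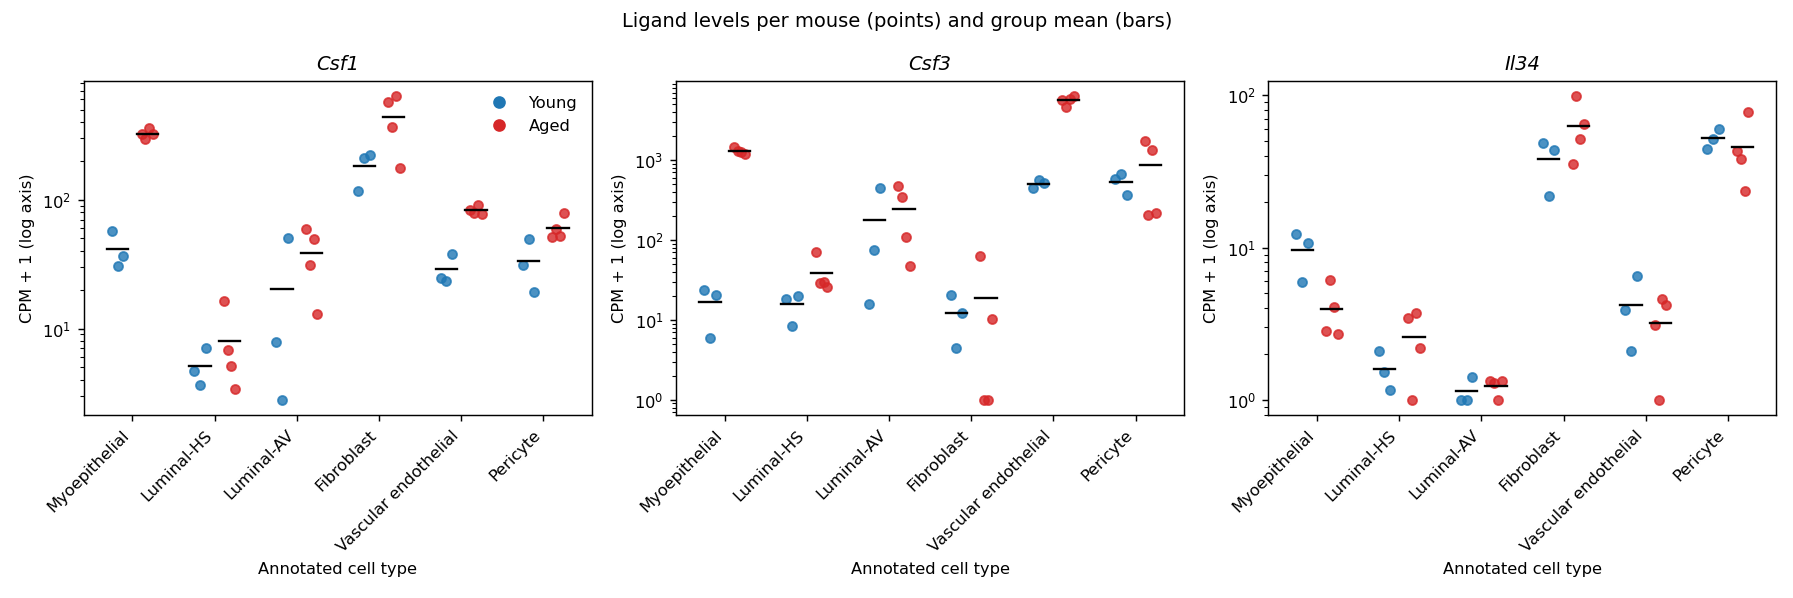
Level of Csf1, Csf3 and Il34 in each mouse for 6 cell types (CPM + 1 of summed UMIs on a log axis, a point per mouse, a bar at the group mean, young in blue and aged in red). Csf3 and Csf1 of the 4 aged mice sit above all 3 young mice in myoepithelial and vascular endothelial cells, while luminal AV cells overlap.

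Csf3 was also unevenly spread over the cells of a type. In young vascular endothelial cells the richest 10% of cells held between 84.6% and 90.6% of all Csf3 UMIs, against 34.9% to 52.6% in aged mice, where the median cell held 3 to 24 UMIs and the richest, in Aged B, held 309. In aged myoepithelial cells the richest 10% held 63.7% to 71.9%, and the median cell held 0. Csf1 and Csf3 occurred together in aged myoepithelial cells: a Csf3 UMI was found in 51.4% of the cells with a Csf1 UMI and in 34.9% of the others, or in 42.0% and 32.3% once every cell was thinned to 2000 UMIs. These shares describe cells, which share mice and libraries, and carry no test.

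Csf2, the ligand of the receptor formed by Csf2ra and Csf2rb, was at the limit of detection. Of its 10 UMIs, 9 were in young fibroblasts, 8 of them in Young C and 1 in Young B, and 1 was in a luminal HS-AV cell. None was seen in 1819 vascular endothelial cells, which allows a share of cells with a UMI of up to 0.165%, or in 4820 luminal AV cells, which allows up to 0.0622%. The aged libraries had no Csf2 UMI, but their 194 fibroblasts could not have shown the young level, since 3 UMIs would have stood for 5.17 to 38.0 CPM in an aged mouse against 1.15 and 1.62 CPM in Young B and C. These limits and the intervals given for shares cover counting error only.

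Csf1r (chr18:61100598-61132149, plus strand), the receptor of CSF1 and IL34, was the most restricted of the receptors. Macrophage Ma, the type marked by Mrc1 and Cd163, had 496, 660 and 572 CPM in the young mice, 1.47, 2.98 and 2.52 times the level of macrophage Mb of the same mice. Macrophage Mb, marked by Mmp12 and Mmp13, had 337, 222 and 227 CPM in the young and 197, 468, 581 and 451 in the aged mice. Aged Mb values spanned the young range, and the difference missed the threshold (log2 fold change 0.93, SE 0.45, edgeR adjusted p = 0.276) in a fit that rested on 9, 6, 4 and 3 aged cells. A UMI was found in 89.3% of 122 Ma cells, 72.6% of 146 Mb cells and 15.0% of 226 dendritic cells. A single aged Ma cell was present, so Csf1r could not be compared between ages there.

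Outside the myeloid cells Csf1r was found in 0.385% of vascular endothelial, 0.498% of luminal AV and 1.26% of luminal HS cells, at median depths of 4907, 6632 and 7277 UMIs. It was called lower with age in luminal AV cells, from 3.07 ± 0.676 CPM (n = 3) to 0.457 ± 0.224 (n = 4). The counts were 4, 2 and 8 UMIs in Young A, B and C and 4, 6, 3 and 1 in the aged mice, from 794 young and 4026 aged cells (log2 fold change −2.35, SE 0.56, edgeR adjusted p = 0.0348). Leaving out Young A, B or C ended the call (edgeR adjusted p = 0.0862, 0.0815 and 0.182). Immune markers moved with it: the summed level of Ptprc, Cd74, Lyz2 and Tyrobp in luminal AV cells was 118 to 183 CPM in young and 13.7 to 65.3 in aged mice, with all 4 markers detected in both groups. Cd74 was the largest part of that sum, at 59.7 CPM over all mice, against 12.0 or less for each of the other 3. Per 100 UMIs of Tyrobp, luminal AV cells had 18.7 UMIs of Csf1r in young and 51.9 in aged mice, on 14 Csf1r UMIs at each age, against 45.8 in macrophage Ma and 9.26 in macrophage Mb of young mice. The part of myeloid RNA in this call was not tested.

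Csf2ra, the specific chain of the CSF2 receptor, was highest in macrophage Mb (259 ± 124 CPM, n = 7), followed by dendritic cells (147 ± 67.1, n = 5) and macrophage Ma (122 ± 19.8, n = 3). Mb exceeded dendritic cells in 4 of 5 mice. In Mb it was 414, 429.995 and 259 CPM in the young and 249, 100.2, 194 and 164 in the aged mice, just short of overlap, and it did not pass the test (log2 fold change −0.75, SE 0.38, edgeR adjusted p = 0.307). In dendritic cells, where Aged C and D had 1 cell each and were left out, it was 142, 190.2 and 228 CPM in the young and 51.4 and 125 in Aged A and B (−1.26, SE 0.52, edgeR adjusted p = 0.202).

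The epithelium also carried Csf2ra, at a lower level. Luminal AV cells were at 21.7 ± 7.14 CPM, luminal HS cells at 16.4 ± 6.91 and myoepithelial cells at 11.1 ± 6.12 (n = 7 each), and AV exceeded HS in all 7 mice. The few luminal HS-AV cells averaged 27.4 ± 17.1 CPM (n = 6), from 34 UMIs. A UMI was found in 12.1% of luminal AV and 12.3% of luminal HS cells, against 1.21% of vascular endothelial cells. At 2000 UMIs per cell these shares were 3.65%, 4.30% and 0.495%. Per 100 UMIs of Tyrobp the epithelial types of young mice had 169 (luminal AV), 581 (luminal HS) and 217 (myoepithelial) UMIs of Csf2ra, whereas young dendritic cells, macrophage Ma and macrophage Mb had 11.2, 10.6 and 11.8. In aged mice the epithelial values were 1874, 1867 and 1025, on 27, 3 and 4 Tyrobp UMIs. In these libraries the ratio in the epithelium was above that of the myeloid cells, and the part of myeloid RNA in the epithelial Csf2ra values was not tested.

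Epithelial Csf2ra was lower in aged mice in each of these types, and the difference was called in myoepithelial cells alone. There it was 16.05, 19.7 and 16.2 CPM in the young, from 17, 4 and 5 UMIs, and 3.67, 6.20, 7.69 and 7.99 in the aged mice, from 4, 18, 5 and 14 UMIs (log2 fold change −1.27, SE 0.41, edgeR adjusted p = 0.0295). Without Young A, B or C or Aged A or B the call was lost, with edgeR adjusted p between 0.0519 and 0.15. In luminal HS cells Csf2ra was 27.0, 20.2 and 21.6 CPM in the young and 8.13, 12.2, 9.51 and 16.6 in the aged mice, without overlap, and missed the threshold (−0.86, SE 0.27, edgeR adjusted p = 0.0874). Luminal AV values of 28.9, 30.6 and 24.8 CPM in young and 10.04, 16.6, 19.5 and 21.8 in aged mice were also apart (−0.42, SE 0.29, edgeR adjusted p = 0.43). The summed immune markers were lower in the aged mice in all 3 epithelial types (177 to 269 against 35.1 to 73.0 CPM in myoepithelial and 66.9 to 87.8 against 5.43 to 43.3 in luminal HS cells). Cd74 was the largest part of these sums over all mice, at 116 CPM in myoepithelial and 40.0 in luminal HS cells. Each of the other 3 markers was at 6.75 or less in both types.

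Csf2rb, the common beta chain, had its highest level outside the blood lineage. Vascular endothelial cells were at 200, 298 and 224 CPM in Young A, B and C and at 237, 210.2, 277 and 226 in the aged mice. The values of both ages lay within the same range, and the log2 fold change was 0.33 (SE 0.17, edgeR adjusted p = 0.174). Dendritic cells were at 104.8, 99.6 and 184 CPM in the young mice and 231 and 250.2 in Aged A and B (0.86, SE 0.42, edgeR adjusted p = 0.263). The vascular level was above that of dendritic cells in 4 of 5 mice.

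Pericytes carried Csf2rb at 235, 204 and 86.9 CPM in the young and 67.4, 37.1, 124 and 68.6 in the aged mice, which overlapped through Young C (log2 fold change −1.12, SE 0.39, edgeR adjusted p = 0.0716). Without Young C or Aged C the difference was called, with edgeR adjusted p of 0.0332 and 0.0285. It was called in 3 of 16 alternatives, and the adjusted p from edgeR or DESeq2 reached 0.283 in the others. Endothelial markers moved with it: Pecam1, Cdh5 and Sox17 summed to 1246 to 1365 CPM in young and 547 to 858 in aged pericytes, against 1624 to 1853 and 1133 to 1329 in vascular endothelial cells, with none of the 3 at 0. Csf2rb was found in 46.9% of pericytes with a Pecam1 UMI and in 14.6% of the others, or in 25.6% and 11.0% at 2000 UMIs per cell. The part of endothelial RNA in the pericyte values was not tested. Luminal AV cells held little Csf2rb, at 5.77, 3.60 and 2.07 CPM in the young and 0.987, 0.199, 1.09 and 1.45 in the aged mice, which did not overlap and were not called (−1.76, SE 0.68, edgeR adjusted p = 0.152).

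The paralog Csf2rb2 was found in 48.1% of vascular endothelial cells with a Csf2rb UMI and in 27.1% of those without. It rose with age in vascular endothelial cells (log2 fold change 0.98, SE 0.16, edgeR adjusted p = 0.00062) and fell in pericytes (−1.76, SE 0.41, edgeR adjusted p = 0.0141). The split of reads between the pair is uncertain.

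Both chains of the CSF2 receptor were found in some of the myeloid cells. Both had a UMI in 46 of 226 dendritic cells (20.4%, 95% Wilson interval 15.6 to 26.1), in 34 of 146 macrophage Mb (23.3%, 17.2 to 30.8) and in 10 of 122 macrophage Ma (8.20%, 4.51 to 14.4). At 2000 UMIs per cell the shares were 7.08%, 4.11% and 0.820%. In vascular endothelial cells Csf2rb was found in 57.4% and Csf2ra in 1.21% of 1819 cells, and both in 12 cells. Luminal AV cells had the opposite bias, with Csf2ra in 12.1% and Csf2rb in 0.768% of 4820 cells.

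Csf3r, the receptor of G-CSF and a neutrophil gene, was rare. Of its 27 UMIs, 13 were in macrophage Mb, in 12 of 146 cells (8.22%, 95% Wilson interval 4.76 to 13.8), and 5 were in macrophage Ma. Among 1819 vascular endothelial cells, where Csf3 was highest, 1 cell had a Csf3r UMI. Neutrophils were not among the annotated types, and of their markers Ly6g and Ngp had 0 UMIs and Retnlg and Elane had 1 each, while S100a8 had 221, of which 190 were in luminal AV cells. Other genes listed for neutrophils, monocytes and mast cells had 12 (Camp), 17 (Mpo), 26 (Cpa3), 27 (S100a9), 30 (Cxcr2), 48 (Mcpt4), 194 (Ccr2, mostly dendritic cells) and 456 (Ly6c2) UMIs. Plac8 had 11714, mostly in fibroblasts, and was the only gene of this list called within a cell type, lower in aged luminal AV cells (log2 fold change −4.11, edgeR adjusted p = 0.00153).

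**Figure D3:**
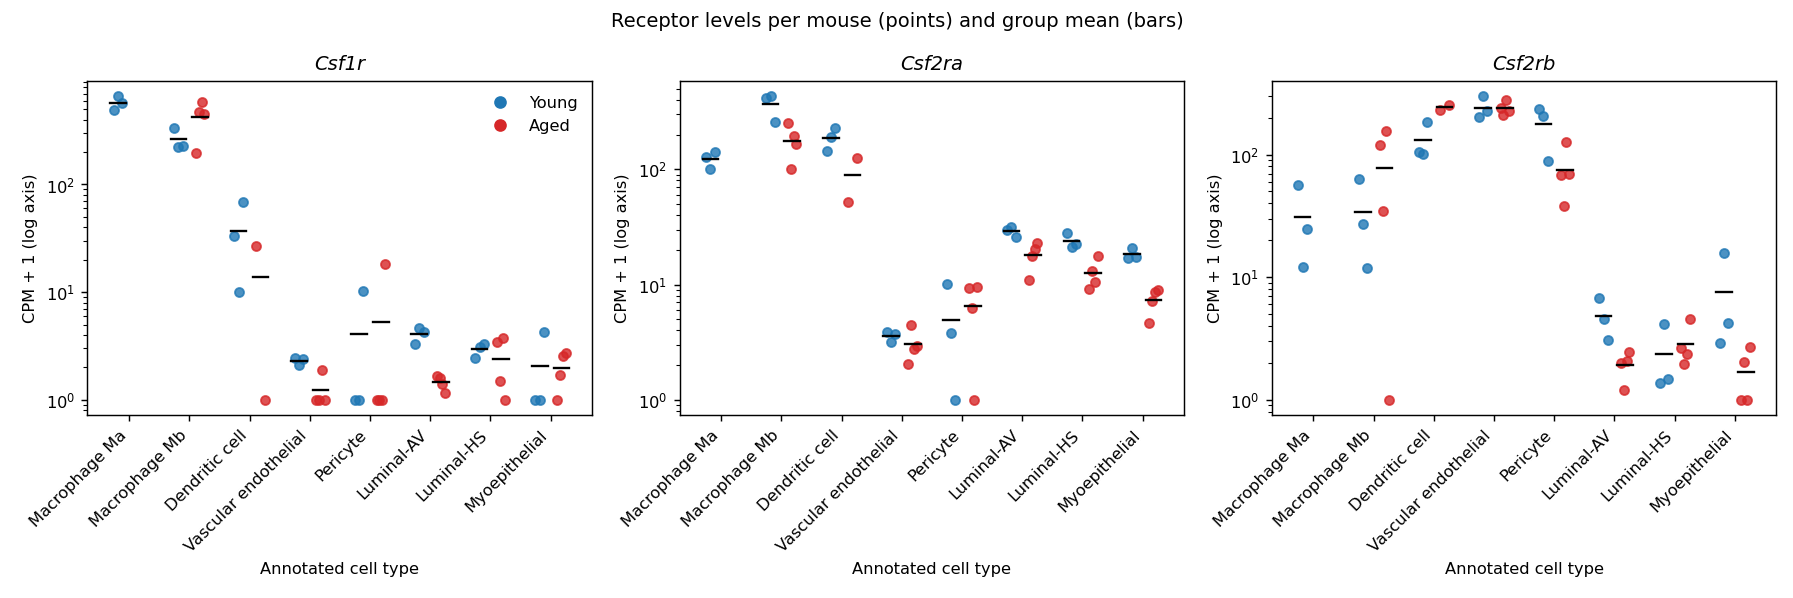
Level of Csf1r, Csf2ra and Csf2rb in each mouse for 8 cell types (CPM + 1 of summed UMIs on a log axis, a point per mouse with at least 3 cells, a bar at the group mean, young in blue and aged in red). Csf2rb of vascular endothelial cells covers the same range at both ages, and Csf2ra of luminal and myoepithelial cells lies lower in the aged mice.

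Taking all members within cell types, 22 pairs of gene and cell type had enough counts to be tested, over 6 members. Of these, 5 were higher in aged mice (Csf1 in myoepithelial and vascular endothelial cells, and Csf3 in these and in luminal HS cells) and 2 were lower (Csf2ra in myoepithelial and Csf1r in luminal AV cells), where a call needed both an adjusted p below 0.05 and a difference of 1.5-fold or more. Over all genes of the same 9 cell types, 6.71% of tests were called higher and 6.02% lower. The members' 5 of 22 lay above the first share and their 2 of 22 close to the second. The 5 are all of Csf1 and Csf3. From the same data, the paper had already reported both genes higher in aged myoepithelial and vascular endothelial cells. The members' share and that of all genes are therefore not alike.

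The background differed between cell types. In myoepithelial cells 3 of 3 members tested were called, against 27.6% of all genes, and in vascular endothelial cells 2 of 3, against 26.7%. In luminal HS cells 1 of 3 was called against 6.26%, and in luminal AV cells 1 of 5 against 6.16%. No member was called in fibroblasts (3.17% of all genes), pericytes (11.8%), dendritic cells (3.75%) or macrophage Mb (1.16%), by edgeR at the adjusted threshold, and DESeq2 called none there either. At an unadjusted p under 0.05 in edgeR, Csf1 in fibroblasts, Csf2rb in pericytes and Csf2ra in dendritic cells passed. No member had enough counts in T and B cells, where 0.656% of genes were called.

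**Figure D4:**
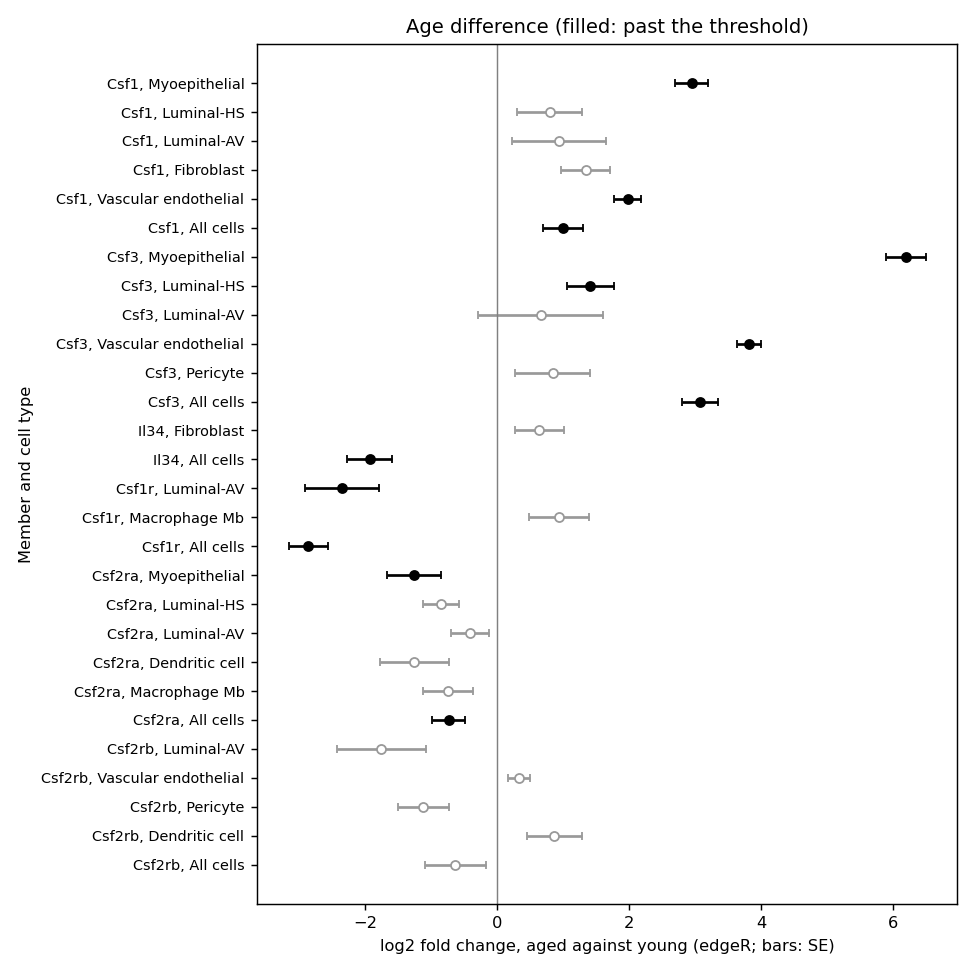
Aged against young log2 fold change of each tested member in each cell type (edgeR, bars show the SE, filled points mark a call). Csf3 in myoepithelial cells stands at 6.19 and Csf3 in vascular endothelial cells at 3.81, while most receptor values lie below 0.

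The same UMIs were also read as shares of cells with a UMI at 2000 UMIs per cell. A Csf1 UMI was found in 6.50% ± 4.24 (n = 3) of young and 36.7% ± 3.39 (n = 4) of aged myoepithelial cells, and in 4.45% ± 1.18 and 12.3% ± 0.287 of vascular endothelial cells. The Csf3 shares were 1.55% ± 1.35 and 36.0% ± 2.31 in myoepithelial, and 16.7% ± 1.06 and 67.2% ± 9.37 in vascular endothelial cells. Each of these 4 had an exact two-sided permutation p of 0.0286, the smallest that 3 against 4 mice allow. Luminal HS cells with Csf3 went from 2.15% ± 1.27 to 6.14% ± 1.62 (exact p = 0.0571), against 0.912% and 2.69% in fibroblasts.

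Csf2ra was found in 5.24% ± 1.42 of young and 2.19% ± 1.20 of aged luminal HS cells and in 5.81% ± 1.67 and 3.30% ± 0.650 of luminal AV cells (exact permutation p = 0.0286 for both). Csf2rb shares were 33.5% ± 4.05 and 33.7% ± 6.15 in vascular endothelial cells (exact permutation p = 0.943). Of the 31 pairs compared, the ages did not overlap in 11, or 35.5%, against 15.9% over all genes, and 5 of the 11 were higher in aged mice. After Benjamini-Hochberg adjustment over the 31 pairs none passed, since the smallest value was 0.0984. Among the 11 were Csf2rb shares that averaged 1.12% to 1.63% in young and up to 0.247% in aged myoepithelial, luminal AV and fibroblast cells.

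A separate question was whether myoepithelial cells changed by a larger factor than other cells of the same gland. It was tested on the within-mouse difference in log2(CPM + 1), which does not compare the CPM gained. In CPM, Csf3 gained more in vascular endothelial cells, from 450 to 564 in young to 4591 to 6299 in aged mice. In myoepithelial cells it went from 4.92 to 22.7 in young to 1184 to 1453 in aged mice. For Csf3 the myoepithelial level stood 5.16 log2 units below that of vascular endothelial cells in young and 2.10 below it in aged mice, so the gap narrowed by 3.06 (exact permutation p = 0.0286, 0.0408 after adjustment over 10 comparisons). The age difference in myoepithelial cells also exceeded that in luminal HS cells by 5.23, in luminal AV cells by 5.43 and in pericytes by 6.38 (each exact permutation p = 0.0286). For fibroblasts it was 7.55 (exact permutation p = 0.0571). The 41 and 15 fibroblasts of Aged B and C had no Csf3 UMI, so the added 1 CPM set their values. For this pair the edgeR interaction described below was 4.87. The young myoepithelial side of all these Csf3 differences rested on 24, 1 and 6 UMIs.

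For Csf1 the myoepithelial age difference exceeded that in fibroblasts by 1.89, in vascular endothelial cells by 1.47 and in pericytes by 2.08 (each exact permutation p = 0.0286, adjusted 0.0408). Against luminal HS cells it was 2.60 (exact permutation p = 0.0571), and against luminal AV cells it was 1.36 with overlap (exact permutation p = 0.4). The ages did not overlap in 9 of the 10 comparisons, against 22.9% of all tests of this kind. The 2 shares are not alike, since the paper had already reported Csf1 and Csf3 higher in aged myoepithelial cells. The 10 comparisons also reuse the same myoepithelial values, so their count carries no test. An edgeR model of both cell types with an interaction of type and age, which treats the sums of a mouse as independent, gave an adjusted p below 0.05 in 9 of 10, the exception being Csf1 against luminal AV cells (2.19, edgeR adjusted p = 0.107).

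Summed over all cells of a mouse, as a bulk sample of these dissociated glands would show, 5 of 6 members tested were called against 32.7% of all genes. Fewer cells of a type and less RNA per cell cannot be told apart in such sums. Higher were 2, against 15.9% of genes: Csf3, at 122, 202 and 108 CPM in young and 981, 817, 824 and 1149.63 in aged mice (log2 fold change 3.07, SE 0.27, edgeR adjusted p = 0.000576), and Csf1, at 38.5, 39.7 and 80.5 against 111, 79.7, 74.0 and 73.8 (0.99, SE 0.30, edgeR adjusted p = 0.0316). The Csf1 values overlapped through Young C, without which the fold change was 1.50, and the call was lost without Young A or B or Aged A, C or D (edgeR adjusted p of 0.0974, 0.098, 0.07, 0.054 and 0.0548).

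Lower were 3, against 16.8% of genes. Csf1r was 25.0, 13.1 and 16.0 CPM in young and 2.81, 1.35, 2.16 and 1.58 in aged mice (log2 fold change −2.87, SE 0.29, edgeR adjusted p = 0.000771), and Il34 was 14.8, 6.16 and 14.3 against 3.29, 2.47, 1.57 and 2.52 (−1.94, SE 0.34, edgeR adjusted p = 0.004). Within fibroblasts Il34 and within macrophage Mb Csf1r had fold changes above 0 that missed the threshold, and both kinds of cell were a smaller share of the aged libraries: fibroblasts were 25.5% ± 10.8 of young and 2.76% ± 3.06 of aged cells (exact permutation p = 0.0286). Csf2ra, at 40.0, 23.1 and 26.4 against 10.1, 13.1, 16.4 and 16.2 CPM, was called lower too (−0.74, SE 0.25, edgeR adjusted p = 0.0453), but not without Young A or C or Aged A, B or C (edgeR adjusted p from 0.0554 to 0.165). Csf2rb, at 56.6, 98.6 and 19.4 against 25.9, 19.1, 34.1 and 35.3 CPM, was not called (−0.64, SE 0.47, edgeR adjusted p = 0.304), but without Young C it was, at −1.04 with an edgeR adjusted p of 0.0419, and without Young B it was −0.02.

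The share of a gene's UMIs that each cell type gave shifted accordingly. In young mice fibroblasts gave 72.6% ± 8.69 of Csf1 UMIs and myoepithelial cells 5.23% ± 6.41, and in aged mice the values were 10.6% ± 12.2 and 49.0% ± 21.6 (exact permutation p = 0.0286 for both). Luminal AV cells gave 3.98% of Csf1 in young and 27.4% in aged mice. Vascular endothelial cells gave most of Csf3 on average, with 53.4% ± 29.2 and 64.4% ± 17.0 (exact permutation p = 0.571), although in Young C luminal AV cells gave 59.9%, while pericytes went from 15.9% to 1.33% and myoepithelial cells from 0.674% to 17.3%. Of Csf2ra UMIs, luminal AV cells gave 11.7% ± 1.83 in young and 74.2% ± 11.3 in aged mice. The ages did not overlap in 11 of 19 pairs, or 57.9%, which is near the 62.1% over all genes, and the smallest adjusted p over the 19 was 0.0603. Luminal AV cells themselves made up 11.7% of young and 55.9% of aged cells.

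**Figure D5:**
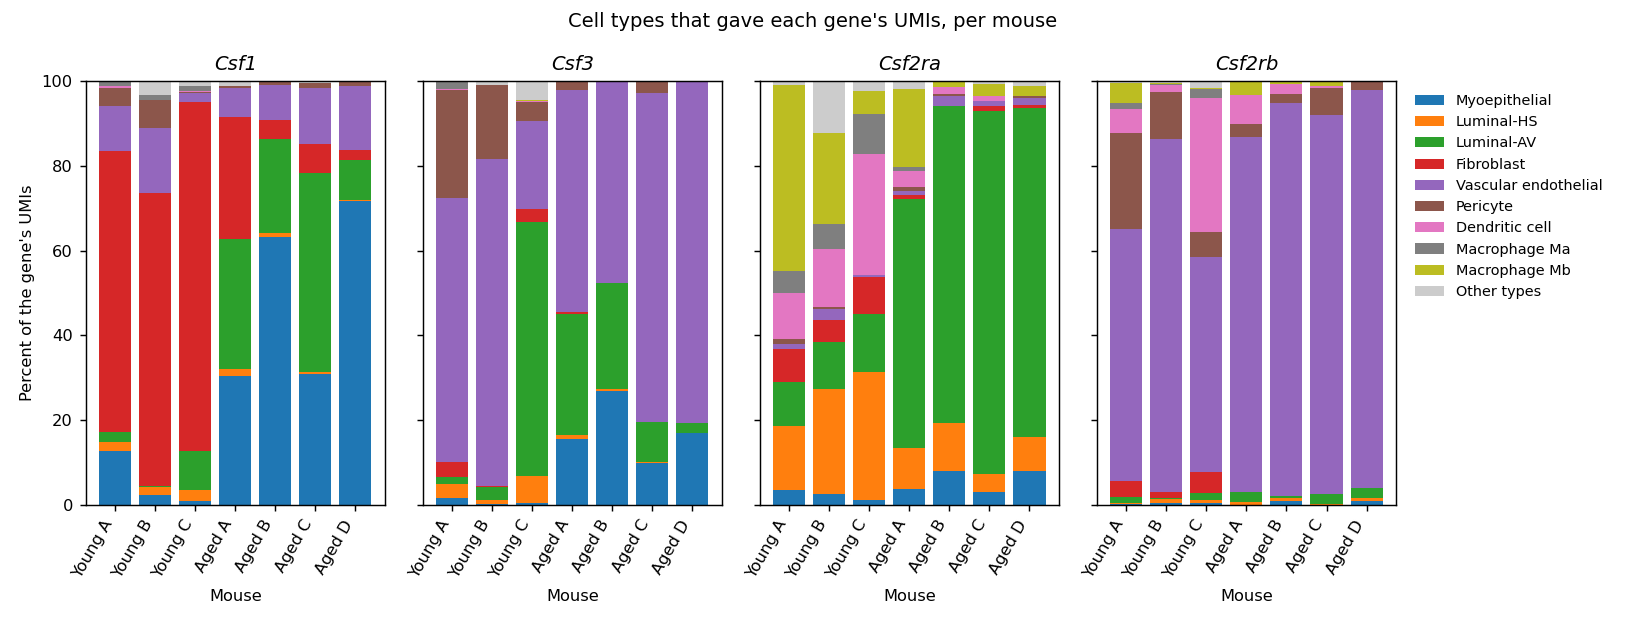
Share of the UMIs of Csf1, Csf3, Csf2ra and Csf2rb that came from each cell type in each mouse (stacked bars in percent of the gene's UMIs). Fibroblasts give 72.6% of Csf1 in young and 10.6% in aged mice on average, and vascular endothelial cells give most of Csf3 in the mean of both ages.

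Genes of the same pathways were described from lists, by counts beside the median over all genes, which lay between −0.07 and 0.02 on the log2 scale in every cell type. Of the inducers and decay factors of these transcripts, 8 of 16 tested rose and none fell in myoepithelial cells (list median 1.12), where 27.6% of all genes were called in either direction, among them Tnfaip3 (log2 fold change 2.77) and Nfkbia (1.84), both targets and inhibitors of NF-kB, Zc3h12a (2.30), an RNase of inflammatory transcripts, and Nfkbiz (2.26), an IkB family protein. In vascular endothelial cells, with 26.7% of all genes called, 12 of 17 rose and none fell (median 0.96), led by the interleukin 1 receptor Il1r1 (2.43), Zfp36l1 (1.68), Fosl1 (1.62) and Tnfaip3 (1.58). The counts were 5 of 17 higher in luminal HS cells (median 0.59, 6.26% of all genes called), again with Tnfaip3 (2.42). They were 1 of 16 in fibroblasts and 1 of 14 in pericytes, where 3.17% and 11.8% of all genes were called. In luminal AV cells, with 6.16% of all genes called, 1 rose and 1 fell of 18 (Relb 1.64, Il1b −5.24). Il1b and the other myeloid genes that fell in luminal AV cells (Tyrobp, Zeb2 and Plac8) did so beside the lower immune markers given above for these cells.

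Genes known to respond to tissue dissociation, a list that shares Nfkbia, Zfp36, Jun and Fos with the inducers, were called higher and lower in 3 and 1 of 14 in myoepithelial cells (median 0.02), 2 and 0 in luminal HS, 0 and 0 in luminal AV, 3 and 1 in fibroblasts, 4 and 2 in vascular endothelial cells (median −0.07) and 6 and 1 in pericytes (median 0.45). The shares of all genes called in myoepithelial cells (27.6%) and vascular endothelial cells (26.7%) are close to the 4 of 14 and below the 6 of 14 of this list. In pericytes, fibroblasts and luminal HS cells the share of the list called was above that of all genes (11.8%, 3.17% and 6.26%). In luminal AV cells it was below the 6.16% of all genes. In dendritic cells 1 of 13 was lower (Jund, −1.20). Ier3 was among those higher in myoepithelial (1.72) and vascular endothelial cells (2.00), and Fosb among those lower (−1.30 and −1.53). The part of dissociation in the Csf values was not tested.

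Among signal transducers, whose 3 calls of 10 in myoepithelial cells are near the 27.6% of all genes there and whose 5 of 13 in vascular endothelial cells stand beside 26.7%, vascular endothelial cells had 2 of 13 higher (Stat5a 1.99, Grb2 0.67) and 3 lower (Tyrobp −4.44, Lyn −1.17, Socs1 −0.95), and myoepithelial cells had 2 of 10 higher (Src 1.31, Grb2 0.93) and 1 lower (Cbl −1.20, a ubiquitin ligase of CSF1R). Luminal AV cells had 1 higher and 1 lower of 14 (Cish 1.02, Tyrobp −3.92), fibroblasts 1 higher of 9 (Cish 1.29), and luminal HS cells and pericytes none of 13 and 6. Of the other growth factors of blood cells and their receptors, 1 of 2 tested rose in myoepithelial, 1 of 4 in luminal HS, 1 of 5 in luminal AV, 1 of 4 in fibroblast and 2 of 6 in vascular endothelial cells, and 1 of 3, Csf2rb2, fell in pericytes. For every list of this paragraph, the share of all genes called was 27.6% in myoepithelial, 6.26% in luminal HS and 6.16% in luminal AV cells. It was 3.17% in fibroblasts, 26.7% in vascular endothelial cells and 11.8% in pericytes. Counts from so few genes are a description only. Kitl, the ligand of KIT, rose in luminal HS cells (2.42), fibroblasts (1.76) and luminal AV cells (0.95), and Sdc1, a proteoglycan that binds IL34, rose in myoepithelial (0.98) and vascular endothelial cells (1.60). Of the sheddases, which release cell surface CSF1, Adam10 fell in myoepithelial (−1.69) and luminal AV cells (−1.38), and neither Adam10 nor Adam17 was called in luminal HS, fibroblast or vascular endothelial cells. Of the myeloid transcription factors, 2 of 4 rose in myoepithelial cells (Cebpa 1.00, Runx1 0.98) and none was called of 3 in luminal HS cells, of 4 in fibroblasts and of 2 in pericytes. Runx1 also rose in vascular endothelial cells (2.38), and in luminal AV cells Cebpa rose (1.14) and Zeb2 fell (−3.51).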

How the data were processed

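Single-cell RNA-seq counts of 7 mice were used. Per the labels and methods, the authors aligned reads with Cell Ranger 2.0 to mm10 and deposited UMI counts, not normalized, together with a metadata table that gave the cell type and the mitochondrial fraction of each cell. The authors had filtered cells, including potential doublets. Counts were added up over the cells of each type in a mouse (at least 3 cells) and tested in edgeR 4.0.16 (R 4.3.3) with TMM scaling, filterByExpr and the quasi-likelihood test, fitted on all genes with Benjamini-Hochberg adjustment. Sums rather than cells were tested because the mouse is the replicate. A call needed an adjusted p under 0.05 and at least 1.5-fold. Single values were compared by exact permutation over the 35 divisions of 3 and 4 mice (scipy 1.17.1). Detection was compared after thinning each cell to 2000 UMIs. CPM were unscaled, whereas fold changes followed TMM. Scrublet (scanpy 1.11.5) marked 73 of 13684 cells, which were kept.

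The members and the 7 gene lists were chosen with earlier results of these data known. All members were named in every cell type, with list genes called with age (at most the 4 largest changes per list and cell type) and, for each member with at least 50 UMIs, the 3 genes of most similar pattern. Alternatives were RLE scaling, no ribosomal and mitochondrial genes, DESeq2 1.42.0, no filter, at least 10 cells, no fold minimum, equal totals, a replicate block, no doublets and each mouse left out. Positions are from GENCODE, and promoters from a RefSeq table, read for 4 of the 8 members. Csf3, Il34 and Csf2rb had no entry there, and Csf1r was left out without being looked up. Total UMIs per mouse ran from 6652599 to 16999625, and nothing in the labels says that libraries of 1 age were made separately. The counts of myeloid transcription factors in vascular endothelial and luminal AV cells are not reported here.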

Additional observations from a re-analysis of the deposited data

Results flagged for a closer look

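Of 23 groups of 4 aged mice tested for a sample far from the others, 2 were flagged, and chance alone flags about 1 in 20 such groups. Both were Csf3 in Aged A: 69.9 CPM in luminal HS cells, where the other aged mice had 24.8 to 28.5, and 62.1 CPM in fibroblasts, where the others had 0 to 9.14.

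The age difference of 7 pairs in myoepithelial cells differed from that in another cell type of the same mice by the exact permutation test, with an adjusted p of 0.0408 each. For Csf1 the myoepithelial change was larger by 1.89 log2 units than in fibroblasts, by 1.47 than in vascular endothelial cells and by 2.08 than in pericytes. For Csf3 it was larger by 5.23 than in luminal HS cells, by 5.43 than in luminal AV cells, by 3.06 than in vascular endothelial cells and by 6.38 than in pericytes. In each of these comparisons all 4 aged mice lay above all 3 young mice.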

How the results depend on the processing

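Csf1 and Csf3 in myoepithelial and in vascular endothelial cells were called in 16 of 16 alternatives. The 5 pairs of gene and cell type called higher within cell types numbered 4 to 5 with a mouse left out. The 2 pairs called lower numbered 1 in DESeq2, 4 without a filter on low counts, 0 at equal totals and 1 with the replicate block, and 0 to 2 with a mouse left out. The 5 members called in all cells numbered 3 with the replicate block and 3 to 5 with a mouse left out. The letters A to C name different animals, and same-lettered mice did not deviate together in sums over all cells (correlations −0.12, −0.18 and −0.17 over 7006 genes), so the block is no pairing. It took the adjusted p of Csf3 in luminal HS to 0.0517 and of Csf1r in luminal AV cells to 0.129. Pairs of UMI source without overlap numbered 5 instead of 11 when every cell type had the same total, and 11 to 14 with a mouse left out. With a mouse left out, pairs of cell shares numbered 10 to 14 and the comparisons between cell types 9 in every case. At 1000 UMIs per cell the former numbered 9, and with a pseudocount of 10 CPM the latter numbered 10. Cells with both CSF2 receptor chains fell from 20.4% to 7.08% of dendritic cells at 2000 UMIs. The cause of these shifts was not tested, apart from the fewer UMIs or samples. Of 237 single results under other settings, 225 kept their side of the threshold, 9 lost and 3 gained a call, and of 179 with a mouse left out, 151 kept it, 24 lost and 4 gained a call. None of these reversed. Csf1 in fibroblasts, Csf2rb in pericytes and Csf2ra in luminal HS cells were called without the filter (adjusted p 0.00212, 0.00157 and 0.0232). Few aged myeloid cells limit the receptor comparisons within macrophages and dendritic cells.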

Other observations

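The genes most similar to each member over 49 sums (1 mouse and 1 cell type each, at least 20 cells, 10 cell types) were found by Pearson's r of log2(CPM + 1) among 10483 genes. The points share libraries and cell types, so r is a description. For Csf1 they were Oaf (0.84), Myc (0.81) and Calu (0.81), for Csf3 Tm4sf1 (0.87), Pgm5 (0.82) and Foxc1 (0.82), and for Il34 Tbx2 (0.89), Dennd2a (0.88) and the chemokine gene Ccl11 (0.87). Csf1r was closest to Adgre1 (0.93), which codes for the macrophage antigen F4/80, and to C3ar1 (0.92) and Kcnk13 (0.91). Csf2ra was closest to Ptpn6 (0.86), a phosphatase of blood cells, Blnk (0.84) and Bcl2a1b (0.83), and Csf2rb to Parvb (0.92), Mfng (0.91) and its paralog Csf2rb2 (0.91).

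Csf1 and Csf3 also occurred together in other aged cells. A Csf3 UMI was found in 44.5% of aged luminal AV cells with a Csf1 UMI and in 20.1% of the others, and in 83.7% and 66.6% of aged vascular endothelial cells. At 2000 UMIs per cell the shares were 36.8% and 11.4% in luminal AV and 77.1% and 64.1% in vascular endothelial cells. In macrophage Mb, Csf1r and Csf2ra were both found in 89 of 146 cells.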
